A study of Mus musculus with 4 samples.

Results

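Transcription factors of the neural plate and neural tube, 10 in all, were read in mouse embryos with a point mutation in Btaf1, namely Dbx1, Zic1, Zic2, Zic5, Irx3, Pax6, Sox1, Sox2, Sox3 and Sox21. All non-control probes that the scanner files name for one of these 10 genes were taken, which gave 14 of the 41174 probes on the array and covered 9 of the genes. Sox3 had 0 probes under that name and was not analysed here. The mutant pools were homozygous for V1330M (written Btaf1-/- by the submitters), an allele induced with the mutagen ENU in C57BL/6J mice, and the control pools were Btaf1+/+. All pools were whole embryos of a C57BL/6J by FVB/NJ hybrid background with between 50% and 90% FVB/NJ, taken at 3 to 5 somites where possible. BTAF1 is an ATPase that takes the TATA-binding protein TBP off DNA.

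Every array carried 1 mutant pool against 1 wild-type pool in the other dye, and 4 arrays were run in 2 sets. In the stage_matched set the pools were matched by somite number. For the age_matched set preference went to litter mates, and somite numbers could differ by up to 5. Replicate 1 of a set had the mutant in Cy5, and replicate 2 had it in Cy3. Because the pools were the same on both, a set is 1 replicate and n = 2. The number of embryos per pool and whether the sets shared embryos are not given in the sources used here. Thus p-values measure the spread between these 2 pairs of pools, which limma draws towards a spread common to all tested probes. They cover no further pools. Between 52.9% and 59.6% of 43379 spots per array and channel were well above background, and 0 were saturated. Values are log2(mutant / wild type). Means are over the 2 sets with the SD between them, and adjusted p-values are from limma over 21939 tested probes, unless stated otherwise.

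The neural plate is the sheet of ectoderm that rolls up into the brain and spinal cord. Sox1, Sox2 and Sox3, the SOXB1 factors, hold its cells in a proliferating progenitor state, while Sox21 is a SOXB2 factor that counters them. Zic genes encode zinc finger factors of the dorsal neural tube and of the early neural plate, and Pax6, Irx3 and Dbx1 encode homeodomain factors that divide the neural tube into progenitor domains along its dorsal to ventral axis. In embryos of a few somites the anterior plate is still open.

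Of the 10 factors, Dbx1 and Zic1 fell in the mutant pools, Pax6, Sox1, Sox2, Sox21 and Zic2 were tested without passing the threshold, and Irx3 and Zic5 were not above background. The brightest probe of each of the 7 tested genes was well above background in both genotypes on all 4 arrays. As means over both sets, Dbx1 was at 51.9% of its wild-type level and Zic1 at 57.2%. These shares depend on background correction. Without it the log2 ratios were -0.73 and -0.64 (A_52_P428654), and with processed signals -1.30 and -1.33, against -0.95 and -0.81 here. In all, 2 of 7 tested genes were lower and 0 were higher. Over all 13588 tested genes, limma called 4.89% in either direction, 2.78% lower and 2.11% higher. At the level of probes 3 of 11 were called, all lower, against 4.81% of all tested probes (3.15% lower and 1.67% higher). Among these 3, both Zic1 probes share 40 of 60 bases and are not separate readings. One of them, A_51_P194230, passed the filter through the wild-type channel only, which favours a lower call. With median centring in place of loess, the share of all called probes that were higher was 12.8% against 34.7%, and Dbx1 and Zic1 were called lower under both. The median of the 7 genes was -0.14, with set medians of -0.12 (stage_matched) and -0.14 (age_matched), against 0.02 over all tested genes. In whole-embryo RNA, fewer cells of a type and less RNA per cell cannot be told apart.

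**Figure D1:**
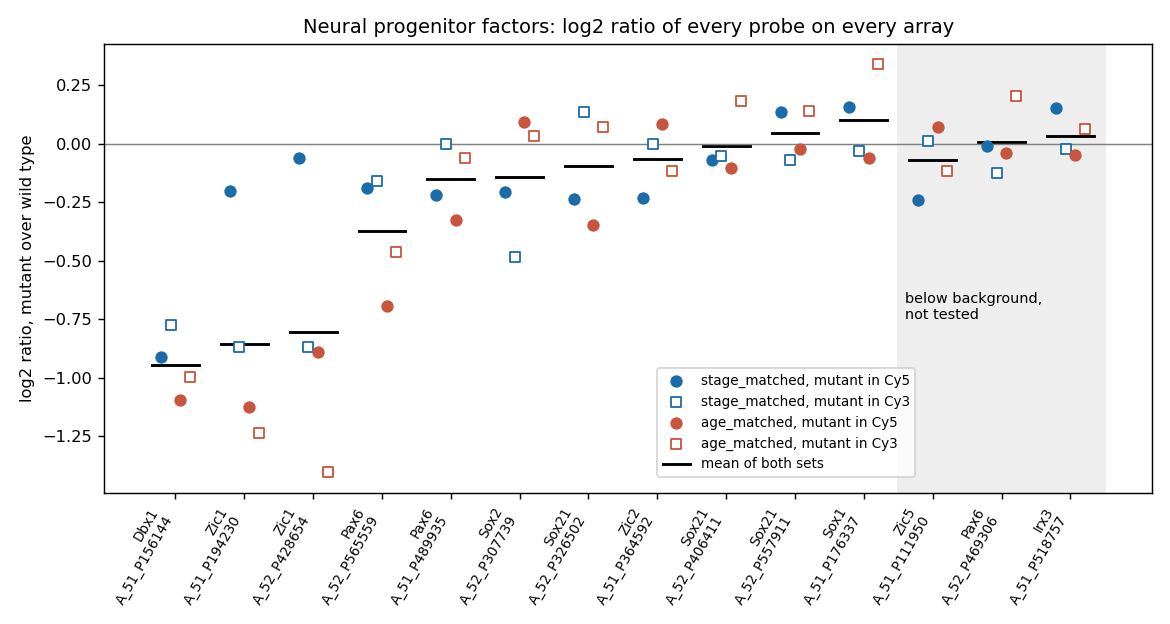
Log2 ratio of mutant over wild type (vertical axis) for each of the 14 probes (horizontal axis, with gene and probe), 1 point per array, coloured by set and shaped by dye orientation, with a bar at the mean of both sets. Of the 11 tested probes 5 are below 0 on all 4 arrays, the 3 leftmost, of Dbx1 and Zic1, and both tested probes of Pax6. The 3 probes in the grey area were not above background.

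Dbx1, a homeodomain factor of the progenitors that give rise to interneurons at the middle of the dorsal to ventral axis, was read by 1 probe (A_51_P156144, chr7:56887073-56887132, minus strand, mm9). In the stage_matched set its log2 ratio was -0.91 and -0.77 (replicates 1 and 2, as in all such pairs), and in the age_matched set -1.10 and -0.997. All 4 values lay below -0.75, and both dye orientations were close to each other within either set. The mean was -0.95 ± 0.14 (SD, n = 2; limma SE 0.10, adjusted p = 0.00528), negative on 4 of 4 arrays, and a mean log2 ratio of -0.75 or below was reached by 0.765% of all tested genes. Negative values on 4 of 4 arrays were found for 13.9% of all tested genes. The normalized log2 intensity of the Dbx1 probe went from 8.47 in the wild-type to 7.63 in the mutant stage_matched pool, and from 8.24 to 7.19 in the age_matched pools. The difference between the sets was -0.20 (limma adjusted p = 0.752). Without the array age_matched replicate 1, Dbx1 was at -0.92 with an adjusted p of 0.0820, past the threshold no longer.

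Zic1, a zinc finger factor of the dorsal neural tube and of the cells at the border of the neural plate, was read by 2 probes that share 40 of their 60 bases (A_52_P428654, chr9:91255445-91255504, and A_51_P194230, chr9:91255425-91255484, both minus strand, mm9). They are thus nearly one measurement. For A_52_P428654, the brighter, stage_matched replicates gave -0.06 and -0.87 and age_matched replicates -0.89 and -1.40. For A_51_P194230 it was -0.20 and -0.87, then -1.13 and -1.23. Both probes were negative on every array, but the stage_matched array with the mutant in Cy5 stood near 0 while its dye-exchanged partner did not. That gap of 0.81 between the 2 arrays was larger than that of 98.0% of tested probes, or as large; for Dbx1 the corresponding gap was 0.14. The means were -0.81 ± 0.48 (SD, n = 2; limma SE 0.15, adjusted p = 0.0275) and -0.86 ± 0.46 (adjusted p = 0.0218). For both Zic1 probes limma drew the SE below what the SD alone would give. In the mutant channel A_51_P194230 was well above background on 3 of 4 arrays.

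The fall of Zic1 was larger in the age_matched set. The set means were -0.46 and -1.15 for A_52_P428654, and -0.54 and -1.18 for A_51_P194230. The difference, age_matched minus stage_matched, was -0.68 (SE 0.17, limma adjusted p = 0.00990) and -0.65 (adjusted p = 0.0189), where 2.32% of all tested probes differed between the sets. The error of this test comes from dye-exchanged arrays of the same pools, so that it covers hybridisation and not the variation from embryo to embryo. With median centring in place of loess it was larger, -0.80 and -0.75, but did not pass (adjusted p = 1.0 for both), and without background correction it was -0.49 and -0.40 (adjusted p = 0.414 and 0.468). With processed signals it was -1.35 and -1.62 and passed (adjusted p = 0.00776 and 0.00211), as it did with a normexp offset of 10 (-0.91 and -0.92). With the arrays scaled to one spread, A_52_P428654 passed at -0.58 (adjusted p = 0.0443) and A_51_P194230 did not at -0.53 (adjusted p = 0.0809). Other transcripts differed between the sets too, some in the opposite direction to Zic1. Xist, which is made from the inactive X chromosome of females, read -1.0 with stage matching and 0.77 with age matching. The Y-linked Ddx3y read 0.41 and -0.85. The median of 15 heart muscle genes was -0.70 and -1.45 in the same order. Their part in the Zic1 difference was not tested, and the way of matching cannot be told apart from the pools themselves.

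Several settings ended the Zic1 call. Without stage_matched replicate 2, A_52_P428654 was at -0.60 (limma adjusted p = 0.0935), while A_51_P194230 kept its call at -0.69 (adjusted p = 0.0485). Without age_matched replicate 1, the probes were at -0.93 and -0.89 (adjusted p = 0.197 and 0.164). Without the filter on dim probes the ratios were the same and more probes were tested (adjusted p = 0.0691 and 0.0575). Without background correction the ratios were -0.64 and -0.67 (adjusted p = 0.0849 and 0.0721), and with processed signals they were larger, -1.33 and -1.54, and passed (adjusted p = 0.0114 and 0.0110).

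**Figure D2:**
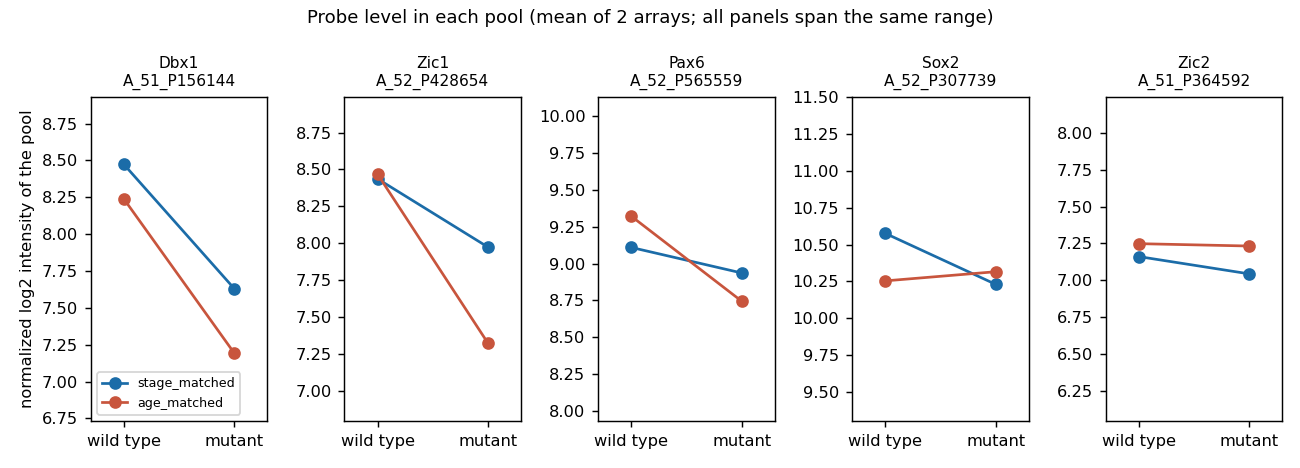
Normalized log2 intensity (vertical axis, with the same range of log2 units in each panel) of 5 probes in the wild-type and the mutant pool (horizontal axis), as the mean of the 2 arrays of a set; lines join the pools of a set, with no error bar because each point is 1 pool. Dbx1 goes down by a like amount in both sets, Zic1 goes down further in the age_matched set, and Zic2 is nearly level.

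BTAF1 acts on TBP, and TBP binds the TATA box, so the bases in front of the annotated starts are shown for the pair of genes that fell and for the 3 SOX genes that did not pass. These are the 60 bases before the start, 5′ to 3′ on the gene's strand, from RefSeq (GRCm38.p6): Dbx1 chr7:49636836-49636895 (minus), Zic1 chr9:91365769-91365828 (minus), Sox1 chr8:12395459-12395518 (plus), Sox2 chr3:34649935-34649994 (plus) and Sox21 chr14:118237031-118237090 (minus). Capitals mark the letters TATAAA.
Dbx1: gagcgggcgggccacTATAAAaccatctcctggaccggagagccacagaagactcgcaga
Zic1: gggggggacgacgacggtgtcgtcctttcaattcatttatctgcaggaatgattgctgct
Sox1: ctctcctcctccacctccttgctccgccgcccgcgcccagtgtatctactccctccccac
Sox2: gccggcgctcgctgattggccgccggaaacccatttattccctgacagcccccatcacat
Sox21: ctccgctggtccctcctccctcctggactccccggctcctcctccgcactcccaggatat

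The table held 9 promoter windows for 8 of the 10 genes, each with 250 bases before and 50 after a start; Pax6 had 2 windows. TATAAA was searched on both strands of these windows. It occurred in 1 of the 9, that of Dbx1, on the sense strand with its first base at -45. The 8 windows of Irx3, Pax6, Sox1, Sox2, Sox21, Zic1 and Zic5 held it on neither strand. Over all 32851 windows of the table, 13.6% held it on either strand, and 2.87% held it on the sense strand within the 60 bases before the start. Most such motifs near a start began at -40 to -21; the bin from -30 to -21 had 403 windows and that from -50 to -41, where Dbx1 falls, 108. Among 247 tested genes with the motif in those 60 bases, 8.1% were called lower and 4.86% higher by limma, with a median of 0.05. The same shares were 2.61% and 2.02%, with a median of 0.02, over the 10289 tested genes that have a window. A match of letters is a description of the window and was not tested as a binding site.

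**Figure D3:**
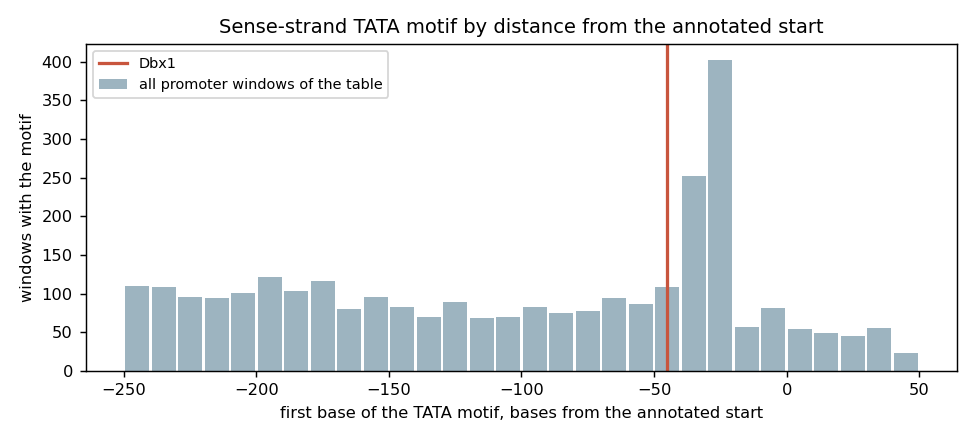
Number of promoter windows (vertical axis) that hold the TATA motif on the sense strand, by the distance of its first base from the annotated start in bins of 10 bases (horizontal axis), over all 32851 windows; the red line marks Dbx1 at -45. The bin from -30 to -21 is the highest at 403 windows, and Dbx1 lies upstream of it.

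Pax6, a paired-box and homeodomain factor of the forebrain, the eye and the ventral neural tube, had 3 probes, and 2 of them were above background. The brighter of these (A_51_P489935, chr2:105537277-105537336, plus strand, mm9) gave -0.22 and -0.0037 with stage matching, then -0.33 and -0.06 with age matching. It had a mean of -0.15 ± 0.06 (SD, n = 2; limma adjusted p = 0.375). The probe A_52_P565559 (chr2:105535591-105536463, plus strand, mm9) is printed on 10 spots of each array, and its 60 bases cover 873 bases of the genome, so it crosses an intron. Its stage_matched values were -0.19 and -0.16 and its age_matched values -0.69 and -0.46, with a mean of -0.38 ± 0.29 (SD, n = 2; limma adjusted p = 0.105). This was the lowest mean among the 8 tested probes that did not pass.

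Single spots of A_52_P565559 show how precise an array is by itself. On stage_matched replicate 2 they ran from -0.26 to -0.08 with a median of -0.14 (10 spots, SD 0.06), and on age_matched replicate 1 from -0.77 to -0.60 with a median of -0.71 (10 spots, SD 0.06). Those of stage_matched replicate 1 ran from -0.48 to -0.01 (9 unmarked spots, SD 0.17) and those of age_matched replicate 2 from -0.58 to -0.35 (9 unmarked spots, SD 0.07). Every usable spot was negative. The spread over spots does not include differences between pools. The difference between the sets was -0.40 (SE 0.17, limma adjusted p = 0.283). The third probe, A_52_P469306 (chr2:105524098-105524949, plus strand, mm9), was above background on 0 of 4 arrays in both channels. The bases of both intron-spanning probes are shown, of which A_52_P565559 alone was above background.
A_52_P565559: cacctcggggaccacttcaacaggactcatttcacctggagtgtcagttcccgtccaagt
A_52_P469306: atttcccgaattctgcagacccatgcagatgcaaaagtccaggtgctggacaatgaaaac

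Sox2, needed to keep neural progenitors and also made in the epiblast before them, was read by A_52_P307739 (chr3:34550773-34550832, plus strand, mm9). The stage_matched pair of arrays gave -0.21 and -0.48, the age_matched pair 0.09 and 0.03. The set means, -0.35 and 0.06, thus had opposite signs, but both arrays of a set read the same pools. Sox2 averaged -0.14 ± 0.29 (SD, n = 2; limma adjusted p = 0.519), with a 95% interval from -0.41 to 0.12 before adjustment. The difference between the sets was 0.41 (SE 0.17, limma adjusted p = 0.275).

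Sox1, the SOXB1 factor whose expression is most confined to neural cells, was read by A_51_P176337 (chr8:12397120-12397179, plus strand, mm9). Stage matching gave 0.16 and -0.03, and age matching -0.06 and 0.34. Each set held 1 positive and 1 negative array. Sox1 averaged 0.10 ± 0.05 (SD, n = 2; limma adjusted p = 0.575), and the 95% interval ran from -0.11 to 0.31. Sox21 had 3 tested probes, on chromosome 14. A_52_P326502, the brightest, had a mean of -0.09 ± 0.06 (SD, n = 2; limma adjusted p = 0.596), A_52_P406411 of -0.01 ± 0.07 (adjusted p = 0.958) and A_52_P557911 of 0.05 ± 0.02 (adjusted p = 0.811). Their 95% intervals lay between -0.31 and 0.26. For A_52_P326502 the arrays with the mutant in Cy5 read -0.24 and -0.35 and those with the mutant in Cy3 0.14 and 0.07, so that the sign followed the dye. A change within these intervals could not be detected with 2 sets, and equal levels in both genotypes were not shown.

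Zic2, a factor whose loss is known to disturb forebrain division and neural tube closure, was read by A_51_P364592 (chr14:122878810-122878869, plus strand, mm9). The 4 arrays, stage_matched first, gave -0.23, -0.00015, 0.08 and -0.12. On average Zic2 stood at -0.07 ± 0.07 (SD, n = 2; limma adjusted p = 0.725), with a 95% interval from -0.28 to 0.15. The interval of Zic1 (A_52_P428654) was -1.15 to -0.46, although its stage_matched replicate 1 read -0.06. The difference between Zic1 and Zic2 was not tested. Zic5, the neighbour of Zic2 on the chromosome, was not well above background on any array in either channel (A_51_P111950, chr14:122858928-122858987), and the same was true of Irx3 (A_51_P518757, chr8:94322759-94322818). Their ratios, drawn in the plot of every probe, set background against background and are not read here.

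The relatives of the factors were read beside them. Zic4, which neighbours Zic1, had 1 tested probe at -0.10 ± 0.13 (SD, n = 2; limma adjusted p = 0.574), above background on 2 of 4 arrays in the mutant channel. At their brightest tested probes, Irx1, Irx2 and Irx5 had means of 0.27, 0.07 and 0.07 and Dbx2 of -0.21, and none passed (adjusted p from 0.225 to 0.771). Another tested Irx2 probe read -0.02 (adjusted p = 0.936). Pax3 and Pax7, dorsal paired-box factors, read -0.33 (adjusted p = 0.0924) and -0.04 (adjusted p = 0.854). Among further SOX genes, Sox4 read -0.15, Sox9 -0.12 and Sox14 -0.02 without passing, while Sox10, of the neural crest, passed at -1.05 (adjusted p = 0.0164). Another tested Sox9 probe read 0.06 (adjusted p = 0.757). Irx4 passed at -0.41 (adjusted p = 0.0489). Sox11 had 6 tested probes from -0.53 to 0.15; A_51_P283516, at -0.53, passed (adjusted p = 0.0480), and the brightest read 0.15 (adjusted p = 0.384).

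Genes with known roles in the same tissue were listed by role, with 1 probe per gene. Whole-embryo RNA does not show in which tissue a listed gene was read. Among other factors of neural tube progenitor domains, 1 of 15 tested genes fell and 0 rose, with a median of -0.04. That gene was Nkx6-1, a factor of ventral progenitors, at -0.46 ± 0.06 (SD, n = 2; limma adjusted p = 0.0335). Its stage_matched arrays read -0.15 and -0.87, and its age_matched arrays -0.34 and -0.50. Without stage_matched replicate 2 the progenitor list had 1 higher and 0 lower calls. Among 25 pan-neural genes, 1 fell and 1 rose, with a median of -0.07. Hes5, a Notch target of neural progenitors, fell by 0.71 (adjusted p = 0.0112) and Dll1, a Notch ligand, rose by 0.56 (adjusted p = 0.0362). Nes and Cdh2, the intermediate filament and the cadherin of neural progenitors, read -0.21 and -0.07 without passing (adjusted p = 0.224 and 0.734). Among 14 proneural and neuronal genes, Stmn3 fell by 0.63 (adjusted p = 0.0157), 0 rose, and the median was -0.02. Stmn3 read -0.46 and -0.29 with the mutant in Cy5, and -0.83 and -0.93 with it in Cy3. These shares of called genes, 6.67%, 8.0% and 7.14%, stand beside 4.89% over all tested genes. With processed signals the progenitor list had 1 higher and 2 lower calls. The pan-neural list then had 2 higher and 1 lower, and the neuronal list 1 higher and 1 lower. Without the filter on dim probes the pan-neural list had 0 higher and 1 lower. Every call in these 3 lists was lost without age_matched replicate 1, and without age_matched replicate 2 only the pan-neural list held calls, 2 lower.

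Regional genes of the brain were called in both directions. In the forebrain list of 10 tested genes 1 fell and 1 rose, with a median of -0.06. Lhx2 fell by 0.47 (limma adjusted p = 0.0302) and Lhx5 rose by 0.52 (adjusted p = 0.0490), while Otx2, which marks the forebrain and midbrain, read -0.16 (adjusted p = 0.332). Lhx2 read -0.80 and -0.75 with the mutant in Cy5, and -0.16 and -0.17 with it in Cy3. Lhx5 read 0.22 and 0.38 with stage matching, then 0.34 and 1.14 with age matching. In the midbrain and hindbrain list of 15 genes, En2 fell by 1.01 (adjusted p = 0.0228), Irx4 fell by 0.41 (adjusted p = 0.0489) and Hoxb2 rose by 0.53 (adjusted p = 0.0274), with a median of -0.03. Hoxb2 read 0.20 and 0.14 with the mutant in Cy5, and 0.64 and 1.15 with it in Cy3. For Irx4 these were -0.49 and -0.60, then -0.21 and -0.32. En2 differed less by dye, with -0.65 and -1.51, then -0.52 and -1.38. With median centring both lists lost their higher call, forebrain had 0 calls with processed signals, and without the filter on dim probes the midbrain and hindbrain list had 1 higher and 0 lower. All calls of both lists were lost without age_matched replicate 1, and those of the forebrain list also without stage_matched replicate 1.

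**Figure D4:**
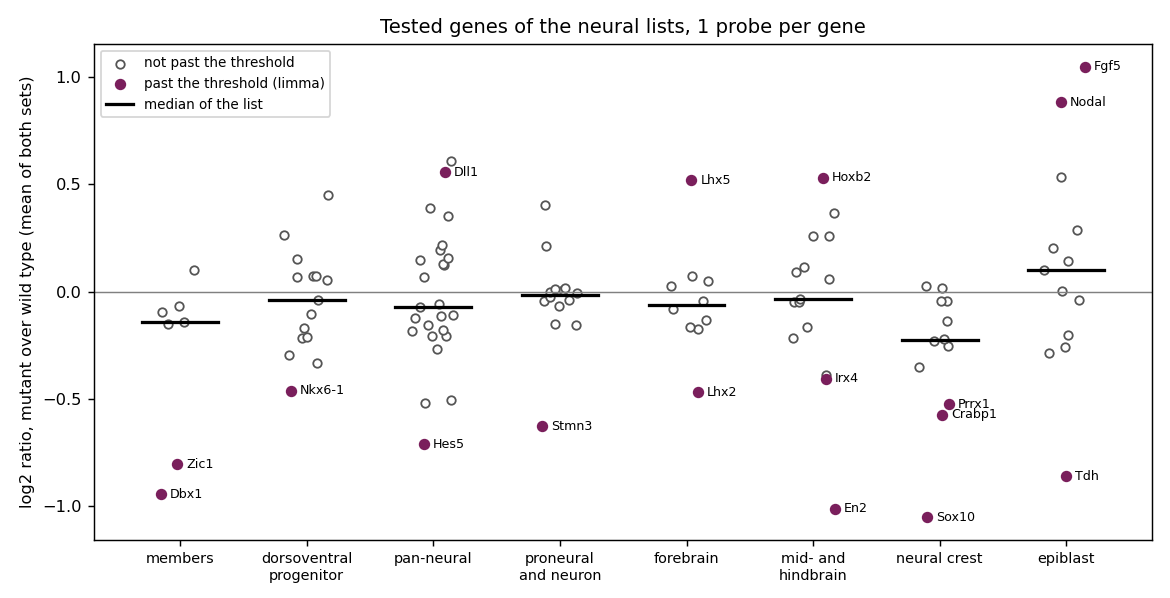
Log2 ratio of mutant over wild type (vertical axis, mean of both sets) of each tested gene in the 10-gene group (members) and in 7 lists of neural, neural crest and epiblast genes (horizontal axis); filled points passed the limma threshold over all tested probes and bars are list medians. List medians lie between -0.22 and 0.10, and the called genes lie on either side of 0 except among the members and the progenitor, neuronal and neural crest lists, where all are below 0.

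Whole embryos hold other cells whose markers moved too. Of 12 neural crest genes 3 fell (median -0.22), namely Sox10 at -1.05, Crabp1 at -0.57 and Prrx1 at -0.53. Of 13 epiblast genes 2 rose, Fgf5 at 1.05 and Nodal at 0.88, and Tdh fell to -0.86 (median 0.10), while Pou5f1 read 0.29 (limma adjusted p = 0.184). Among 13 paraxial mesoderm genes there were 5 that rose and 0 that fell (median 0.19), led by Tbx6 at 0.89, Dll3 at 0.79, Cer1 at 0.73 and Foxc2 at 0.47, while T, the brachyury factor, read 0.41 (adjusted p = 0.139). Of 15 surface ectoderm genes 1 rose, Grhl2 at 0.51 (median 0.04). This list had 0 calls with median centring, and 0 without the filter on dim probes. Heart muscle genes fell in 11 of 15 cases (median -1.04), led by Myh7 at -1.69, Tnni3 at -1.62, Nppa at -1.51 and Myl2 at -1.48. Yolk sac endoderm genes fell in 13 of 14 (median -0.93), led by Apoa1 at -1.64, Slc2a2 at -1.61, Rbp4 at -1.49 and Afp at -1.43. The 4 sex-linked genes moved in opposite directions in the sets, and each differed between them (limma adjusted p up to 0.00106), so that their means over sets are not read. Without age_matched replicate 1 the heart and yolk sac lists kept 2 and 4 lower calls, and the neural crest, epiblast, paraxial mesoderm and surface ectoderm lists lost all of theirs. Without the filter on dim probes the paraxial mesoderm list had 0 calls and the heart list 5, and with processed signals the paraxial mesoderm list had 3 higher and 1 lower. The part of such shifts in the values of Dbx1 and Zic1 was not tested. Btaf1 itself read 0.10 ± 0.03 (SD, n = 2; adjusted p = 0.555); since the allele exchanges 1 amino acid, this level does not check the genotype.

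**Figure D5:**
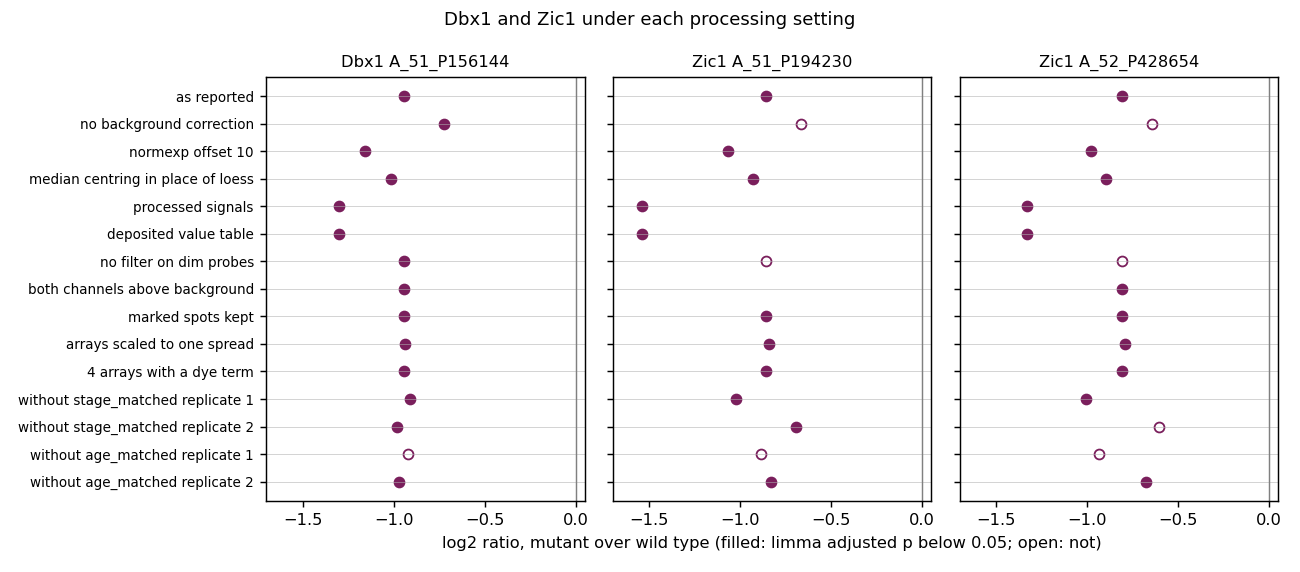
Log2 ratio of mutant over wild type (horizontal axis) of the Dbx1 probe and both Zic1 probes under each processing setting (vertical axis); filled points had a limma adjusted p below 0.05 and open points did not. The Dbx1 ratio ranges from -1.30 to -0.73 and is open in 1 setting, without age_matched replicate 1; all values of both genes are below 0.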

How the data were processed

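RNA from whole embryos, 300 ng per dye by the labels, was read on two-colour Agilent arrays that share 1 slide and 1 scan. Spot and background intensity in each dye was taken as deposited by the authors, with no normalization, per the file headers. The processed intensity and the log10 ratio (Cy5 over Cy3) had background subtraction and dye normalization applied at scanning, per the file headers; the deposited value table holds that log10 ratio as mutant over wild type, within 5e-06. The labels name Feature Extraction 9.5.3 and the headers 10.5.1.1; later steps by the authors are not given in the sources used here.

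With limma 3.58.1 in R 4.3.3, background was corrected by normexp (offset 50), marked spots were left out, and ratios were normalized by loess within arrays. Of 41174 probes, 21939 entered the tests, those well above background on all 4 arrays in at least 1 genotype. The brightest tested probe stood for a gene. Symbols came from RefSeq (GRCm38.p6) by accession, or else from the files. The test was limma on the 2 set means (two-sided; 1 residual and 7.14 prior degrees of freedom), and a Benjamini-Hochberg adjusted p below 0.05 was past the threshold. Sets were compared by limma on 4 arrays with a dye term. Both fits were tested on simulated data. The genes and the 12 other lists were chosen with earlier results of these data known. Every probe of the genes is named, with their relatives, a few markers and, per list and direction, the called genes with the largest ratios (4 at most). Background, normalization, filters, flags, scaling and single arrays were varied. A pair of genes from these lists is not reported here, and list counts leave them out.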

Additional observations from a re-analysis of the deposited data

Results flagged for a closer look

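The log2 ratio of Zic1 differed between the 2 sets at both of its overlapping probes, by -0.65 at A_51_P194230 and by -0.68 at A_52_P428654 (age_matched minus stage_matched; limma adjusted p = 0.0189 and 0.00990). Both sets were negative on all of their arrays, so that the sets differed in the size of the log2 ratio and not in its sign. The error of this test comes from dye-exchanged arrays of the same pools. With median centring, or without background correction, the difference did not pass.

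Sox2 was negative on both stage_matched arrays and positive on both age_matched arrays, with a difference of 0.41 between the sets. The test of that difference did not pass (limma adjusted p = 0.275).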

How the results depend on the processing

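Of the 7 tested genes, 2 (Dbx1 and Zic1) were called, and the same 2 with a normexp offset of 10, median centring, processed signals, the deposited value table, both channels above background, marked spots kept, scaled arrays, 4 arrays with a dye term, and all probes of a gene required. It was 1, Dbx1, without background correction and 1, again Dbx1, without the filter on dim probes. Leaving out single arrays gave 0 to 2; it was 0 without age_matched replicate 1 and 1 without stage_matched replicate 2. The median of the genes, -0.14, was -0.24 with median centring, -0.12 with processed signals or the deposited table, -0.095 without the filter, and -0.20 to -0.098 with an array left out. All called probes numbered 1056, against 62 without background correction, 2001 with offset 10, 1824 with processed signals or the deposited table, 595 without the filter, 1951 with 4 arrays and a dye term, and 23 (without age_matched replicate 1) to 1226 with an array left out. Probes that differed between sets numbered 510, against 0 without background correction, 1 with median centring and 150 with processed signals or the deposited table. Without age_matched replicate 2, Sox1 was at -0.0010, and it ranged up to 0.20 with an array left out. The same ranges for Sox21 were -0.20 to 0.011 (A_52_P326502), -0.083 to 0.061 (A_52_P406411) and -0.0061 to 0.098 (A_52_P557911), each changing sign. With median centring, A_52_P557911 was at -0.027 and its set difference at -0.053. A part of the calls in the gene lists under the alternatives stands beside their counts, and further settings changed such calls. The cause of these changes was not tested. No alternative is given for A_51_P194230 with both channels above background, which leaves it out, and none for the set difference with an array left out, which removes its dye pair. Each ratio pairs the 2 pools of an array, and single embryos were not read. The number of sets, 2, and dim signal limit precision: Irx3 and Zic5 were at background.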
